A study of Mus musculus with 12 samples.

Results

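Solute carriers are the proteins, encoded by genes named Slc, that move small molecules across cell membranes. The set described here holds 194 such genes that were expressed in cultured mouse macrophages, out of 371 protein-coding genes whose symbol starts with Slc and a number. A gene entered the set if it had at least 10 counts in at least 3 of the 6 untreated and IL-4 libraries, which 172 of the 371 did not reach, and 5 further genes (Slc7a1, Slc7a2, Slc11a1, Slc11a2 and Slc40a1) were left out by name. The members were thus chosen by their counts in untreated and IL-4-treated cells, their levels there are a description, and Slc genes seen only with Wnt3a lie outside the set. All 194 members were tested among the 12421 genes of the fit.

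The cells were bone marrow-derived macrophages (BMDMs) of female C57Bl/6J mice, grown from whole marrow in 10 ng/mL mCSF, the growth factor that drives macrophage differentiation, and used on day 7. Of each of 3 mice, 1 culture received medium alone (untreated), 1 received 100 ng/mL Wnt3a, 1 received 100 pg/mL IL-4 and 1 received both, each for 16 hr. Wnt3a is a secreted activator of Wnt signaling and IL-4 is the cytokine that drives alternative macrophage activation. RNA was read as single-end RNA-seq, and the deposited values are counts per gene. The labels name no engineered allele, and each library is a bulk sample, in which fewer cells of a type and less RNA per cell cannot be told apart.

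Within a mouse, the column labelled Wnt3a and the column for both agents shared reads: for all 48526 genes the former was at least 1 and at most 2 times the latter. Of these genes, 23413 had at least 1 count. With the 2 columns taken from different mice, 6681 to 8625 genes fell outside these bounds. They were therefore resolved into the difference (Wnt3a column minus Wnt3a+IL-4 column) and the remainder (2 times the Wnt3a+IL-4 column minus the Wnt3a column). Both were taken to come from Wnt3a-treated cells, 1 without and 1 with IL-4, and the labels do not say which is which. That each part is 1 whole culture was inferred from the counts, is not given by the labels, and underlies every result on the parts. Total counts were 15381184 to 17031873 in untreated libraries, 13342492 to 17113982 with IL-4, 14171994 to 17453377 in the difference and 15707213 to 16998867 in the remainder, and the members took 1.32 to 1.41% of them. All 9 macrophage markers checked were present and summed to 44248 to 68649 CPM (counts scaled to a common library size) in every library, lymphocyte markers summed to at most 0.128 CPM and erythroid markers to at most 0.479 CPM. Among markers of other cells, the 4 dendritic markers summed to 0.753 to 1.13 CPM in untreated cells, 1.44 to 1.62 with IL-4, 2.84 to 7.61 in the difference and 8.41 to 21.0 in the remainder. Ccr7 averaged 0.257, 0.405, 4.05 and 11.3 CPM in these groups, and Zbtb46 0.372, 0.728, 0.472 and 1.13. Flt3 averaged 0.0597, 0.171, 0.0649 and 0.213 CPM, at or under 0.329 in every library, and Xcr1 0.239, 0.207, 0.323 and 0.124. The 7 neutrophil markers summed to 39.3 to 49.3 CPM untreated, 51.2 to 60.8 with IL-4, 28.9 to 45.6 in the difference and 26.2 to 30.4 in the remainder. The 6 stromal markers summed to 4.14 to 28.1 CPM over all libraries. The 4 mast cell and basophil markers summed to 3.86 to 4.58 CPM untreated, 1.79 to 2.40 with IL-4, 2.69 to 3.11 in the difference and 1.49 to 2.76 in the remainder. Kit averaged 4.08, 2.08, 2.56 and 1.78 CPM in these groups, and Cpa3 0.0179, 0.0640, 0.294 and 0.212. The part of these shifts in any member's change was not tested.

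Carriers of the plasma membrane bring in sugars, amino acids, metal ions and vitamins and let out lactate, carriers of lysosomes and endosomes recycle what a phagocyte has digested, and mitochondrial carriers exchange metabolites, nucleotides and cofactors across the inner membrane. In macrophages these routes are known for metal handling, for cystine uptake into glutathione and for the switch between glycolysis and mitochondrial respiration. Some Slc symbols name proteins that do not carry solutes themselves, and 3 members (Slc7a6os, Slc9a3r1 and Slc9a3r2) were filed apart for that reason. Slc4a1ap, also not a carrier, was left with its family among the bicarbonate and anion carriers.

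The members came from 42 numbered families, of which the mitochondrial carriers of family 25 were the largest with 38 genes (19.6%). Just inside the count minimum, Slc26a1 had 18, 15 and 13 counts in untreated cells and 9 in each IL-4 library, the only member that met the minimum through 1 group alone, and Slc39a5 had 12, 7 and 10 counts untreated and 12, 13 and 8 with IL-4. Just outside it, Slc18a2 had 24, 8 and 9 counts untreated and 11, 8 and 8 with IL-4, and Slc25a18 had 11, 10 and 7 against 3, 8 and 3. The minimum in all 6 libraries was met by 186 members, and a minimum of 20 counts in at least 3 by 185. Outside the set, Slc6a4, the serotonin transporter, had 2 counts in each untreated library, 2, 3 and 4 with IL-4, 20, 11 and 8 in the difference and 27, 19 and 36 in the remainder. Slc1a2, a glutamate transporter, had 0, 1 and 2 counts untreated against 6, 10 and 7 in the difference and 20, 7 and 11 in the remainder. The untreated counts of both genes lay at or under 3, so no fold is given for either.

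Levels are compared between genes only as CPM per kilobase of exon. In untreated cells the members' median was 5.56 CPM per kilobase, beside 4.99 for all genes that met the same count minimum, and their levels ran from 0.0684 to 184. Slc48a1, the heme transporter of the phagolysosome, was highest with 184 ± 22.5 (SD, n = 3) and Slc6a6, the taurine transporter, followed with 167 ± 14.5, so that these 2 levels did not differ beyond their spread. Slc43a2, a carrier of large neutral amino acids, reached 113 ± 13.1, and Slc25a3, the mitochondrial phosphate carrier, 81.2 ± 4.12. Slc3a2, the CD98 heavy chain that escorts several amino acid exchangers to the membrane, stood at 77.9 ± 5.71, Slc37a2, a sugar phosphate exchanger, at 76.5 ± 6.53 and Slc25a11, the oxoglutarate carrier, at 73.5 ± 3.88, which lie within each other's spread. The 10 members highest in CPM, not scaled by exon length, took 38.7% of the members' summed CPM. Of the members, 144 stood at 10 CPM or more, 37 at 100 CPM or more and 6 under 1 CPM. Of the 10 highest per kilobase, Slc39a1 shared 21.8% of its 50-base exon stretches with other loci, so its level is uncertain.

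**Figure D1:**
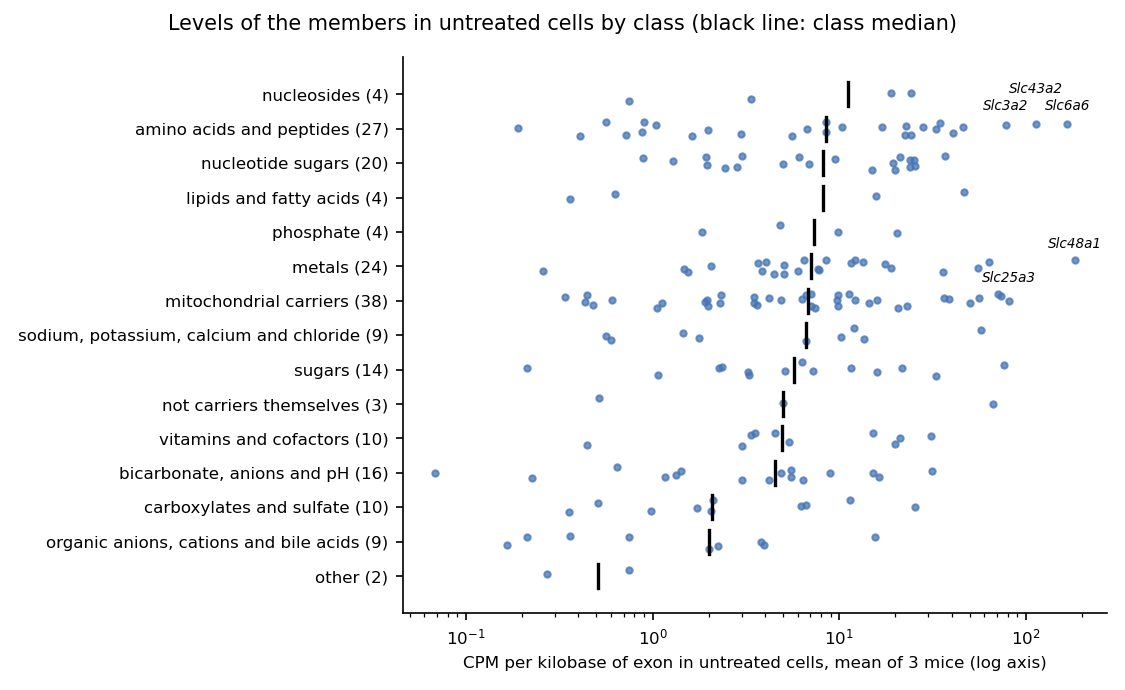
Level of each member in untreated cells, as CPM per kilobase of exon on a log axis (mean of 3 mice, 1 point per gene), by substrate class with the class size in brackets; black lines are class medians. Slc48a1 and Slc6a6 lie furthest right at 184 and 167, and the class of organic anions, cations and bile acids has a median of 2.02.

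Across the set, a change was called at an adjusted p under 0.05, where every adjusted p comes from edgeR's quasi-likelihood test with Benjamini-Hochberg adjustment over the 12421 genes. The test sets a change against the spread between libraries of a group, estimated over all 4 groups of 3 mice each. Unless mouse is named as a block, the libraries of a mouse were not paired. With IL-4 alone, 12 members were called, 8 higher and 4 lower (6.19%, beside 3.40% of all genes tested, 2.31% higher and 1.09% lower). In the difference, 55 members were called against untreated cells, 29 higher and 26 lower (28.4%, beside 23.2% of all genes, 11.8% higher and 11.4% lower), and in the remainder 67, 42 higher and 25 lower (34.5%, beside 25.3%, 13.6% higher and 11.7% lower). Between the remainder and the difference 15 members were called, 10 higher in the remainder and 5 lower (7.73%, beside 5.25%, 2.87% higher and 2.38% lower). The 3 untreated libraries serve all 3 comparisons with untreated cells. The median log2 fold change over the members was -0.0060 with IL-4, -0.011 in the difference, 0.0082 in the remainder and 0.035 between the parts, beside -0.0030, -0.012, -0.024 and 0.010 over all genes tested. With total counts as the scaling the median of all genes moved to -0.10 (difference) and -0.13 (remainder), and the calls split into 22 higher and 38 lower members in the difference and 29 higher and 38 lower in the remainder, so the balance of directions depends on the scaling. In 108 members no call was made in any of these 4 comparisons. The counts by class or list that follow stand beside the shares of all genes given above, and no class or list was tested as a set.

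**Figure D2:**
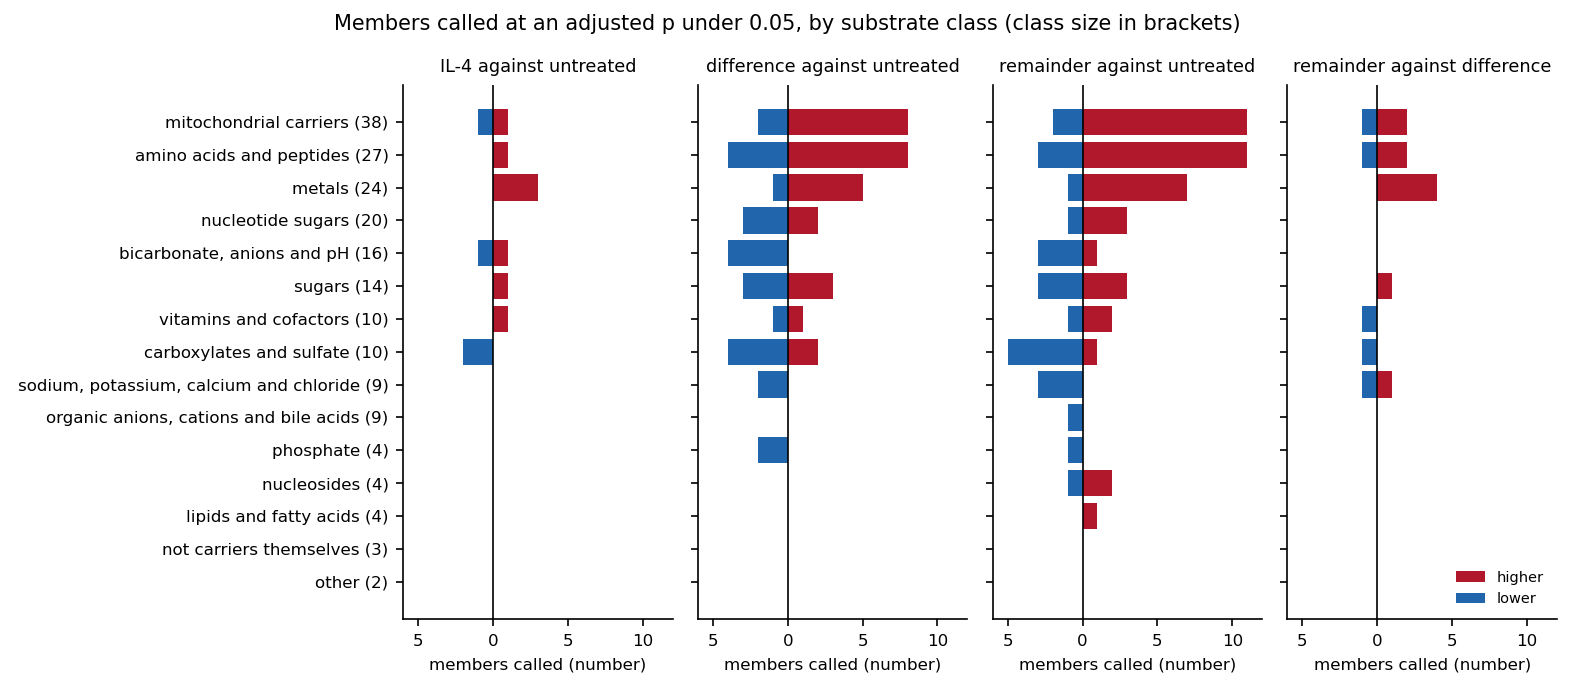
Number of members called higher (red, to the right) or lower (blue, to the left) in each comparison, by substrate class with the class size in brackets. The 11 mitochondrial carriers and 11 amino acid and peptide carriers called higher in the remainder are the longest bars, and of the 10 carriers filed with carboxylates and sulfate 5 were called lower in the remainder.

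Amino acid carriers held the largest rises in both parts. Slc7a11, the cystine/glutamate exchanger xCT that supplies cysteine for glutathione (chr3:49892526-50443614, minus strand, GRCm38), read 9.84, 4.25 and 9.47 CPM in untreated cells, 7.55, 7.67 and 7.36 with IL-4, 59.7, 39.2 and 35.04 in the difference and 25.03, 42.95 and 32.5 in the remainder. Every Wnt3a-treated library stood above every untreated and IL-4 library. The log2 fold change was 2.50 ± 0.28 (adjusted p = 1.67e-05) in the difference and 2.08 ± 0.28 (adjusted p = 7.41e-05) in the remainder, and -0.07 ± 0.30 (adjusted p = 0.952) with IL-4 alone.

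Slc6a13 and Slc6a12, transporters of the transmitter GABA and of osmolytes such as betaine and taurine, lie 5343 bases apart on chromosome 6 on the same strand (chr6:121300227-121337733 and chr6:121343076-121365775). Slc6a13 read 2.47, 2.38 and 2.95 CPM in untreated cells, 3.42, 2.11 and 2.81 with IL-4, 14.6, 13.2 and 13.9 in the difference and 21.7, 13.3 and 18.4 in the remainder. Slc6a12 read 70.6, 67.9 and 67.5 CPM in untreated cells, 86.7, 75.3 and 72.9 with IL-4, 191, 219 and 213 in the difference and 238, 223 and 245 in the remainder. In both genes all 6 Wnt3a-treated values lay above all 6 others. The log2 fold changes of Slc6a13 were 2.42 ± 0.20 (adjusted p = 1.07e-06) in the difference and 2.77 ± 0.20 (adjusted p = 2.20e-07) in the remainder, and those of Slc6a12 1.597 ± 0.08 (adjusted p = 1.44e-08) and 1.78 ± 0.08 (adjusted p = 5.09e-09). Only 0.140% and 0.126% of their 50-base exon stretches were shared, each with the other gene.

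Of the 27 members filed by family with the amino acid and peptide carriers, 8 were called higher and 4 lower in the difference, and 11 higher and 3 lower in the remainder, with Slc43a3, a carrier of purine bases, among the higher calls of both. Slc36a1, a lysosomal exporter of small neutral amino acids, read 127, 128 and 129 CPM in untreated cells, 122, 117 and 122 with IL-4, 179, 167 and 167 in the difference and 183, 181 and 189 in the remainder, with log2 fold changes of 0.42 ± 0.06 (adjusted p = 0.000243) and 0.52 ± 0.06 (adjusted p = 2.60e-05) in the difference and the remainder. Its untreated values did not overlap with either part. Slc43a3 had log2 fold changes of 1.05 ± 0.25 (adjusted p = 0.00774) and 1.19 ± 0.25 (adjusted p = 0.0028). Without mouse 3 both calls were lost (adjusted p = 0.11 and 0.0979), and without mouse 1 of the difference the first was (0.0564). The heavy chain Slc3a2 rose by 0.26 ± 0.08 (adjusted p = 0.0274) in the remainder, and Slc7a5, a light chain it escorts and a carrier of large neutral amino acids, by 0.95 ± 0.27 (adjusted p = 0.0191). Either call was lost without mouse 1 (adjusted p = 0.221 and 0.101), without mouse 3 (0.218 and 0.0944) and without the remainder of mouse 1 (0.0876 and 0.0834). The first was also lost without the untreated library of mouse 1 (0.0832) or mouse 3 (0.0902), and the second without that of mouse 2 (0.0578). In a list of 9 amino acid transport genes tied to the stress factor ATF4, 7 were tested, and 1 (Slc7a11) was called in the difference and 3 (Slc3a2, Slc7a11 and Slc7a5) in the remainder, all higher. Beside them, 11.8% and 13.6% of all genes tested were called higher.

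The 250 bases before the start site are shown for 5 members that lead a comparison: Slc7a11 and Slc6a13 as the highest rises in the Wnt3a-treated cells, Slc2a6 as the glucose transporter that rose most in the remainder, Slc30a4 as the highest rise with IL-4, and Slc13a3 as the largest fall in each comparison with untreated cells. They come from RefSeq on GRCm38.p6, which gave a window for 147 of the 194 members and for 27025 genes in all. They lie at chr3:50443614-50443863 (minus strand), chr6:121300038-121300287 (plus, the first of 3 listed start sites), chr2:27027999-27028248 (minus), chr2:122702664-122702913 (minus) and chr2:165473198-165473447 (minus), each printed 5′ to 3′ on the gene's own strand. Capitals mark letters that match any of 6 motifs searched on both strands: TGATGNAA (C/EBP-ATF response element), TGACNNNGC (antioxidant response element), the STAT6 palindrome, which has 4 bases between its arms, CTTTGAT (TCF/LEF), ACGTG (core of the hypoxia response element) and a subset of the NF-κB site. Other forms of the NF-κB site were not searched.
Slc7a11: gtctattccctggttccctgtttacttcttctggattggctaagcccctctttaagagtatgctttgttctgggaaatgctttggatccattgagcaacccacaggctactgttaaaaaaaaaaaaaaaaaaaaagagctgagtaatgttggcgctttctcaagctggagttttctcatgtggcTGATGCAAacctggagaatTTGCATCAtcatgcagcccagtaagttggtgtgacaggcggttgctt
Slc6a13: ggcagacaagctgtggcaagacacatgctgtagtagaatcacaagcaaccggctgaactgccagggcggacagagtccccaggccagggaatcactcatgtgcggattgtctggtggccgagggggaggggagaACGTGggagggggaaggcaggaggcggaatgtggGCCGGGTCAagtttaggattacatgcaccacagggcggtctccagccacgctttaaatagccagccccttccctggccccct
Slc2a6: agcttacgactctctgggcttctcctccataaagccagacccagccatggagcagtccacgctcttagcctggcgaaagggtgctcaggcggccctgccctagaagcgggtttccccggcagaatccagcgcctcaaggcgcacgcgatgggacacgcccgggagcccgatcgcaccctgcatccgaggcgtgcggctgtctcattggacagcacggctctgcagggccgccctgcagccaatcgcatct
Slc30a4: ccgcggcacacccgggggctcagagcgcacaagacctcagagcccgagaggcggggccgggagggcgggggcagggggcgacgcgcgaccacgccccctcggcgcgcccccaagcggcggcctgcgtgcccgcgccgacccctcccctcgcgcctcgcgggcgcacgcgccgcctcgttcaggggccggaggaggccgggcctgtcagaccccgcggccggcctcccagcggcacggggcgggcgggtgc
Slc13a3: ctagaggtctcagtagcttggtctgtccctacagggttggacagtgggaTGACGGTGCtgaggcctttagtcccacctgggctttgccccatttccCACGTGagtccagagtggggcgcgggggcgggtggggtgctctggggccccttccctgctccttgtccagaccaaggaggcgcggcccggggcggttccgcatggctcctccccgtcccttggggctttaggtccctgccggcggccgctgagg

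The Slc7a11 window held TGATGNAA at 66 to 59 and, on the other strand, at 47 to 40 bases before the start, a motif found in 3.53% of the 27025 windows and in 4 of the 147 member windows (2.72%). The Slc6a13 window held TGACNNNGC at 82 to 74 and ACGTG at 116 to 112 bases before the start, and the Slc13a3 window held TGACNNNGC at 201 to 193 and the palindrome CACGTG, which contains ACGTG on each strand, at 154 to 149. TGACNNNGC occurred in 10.1% of all windows and 17.7% of member windows, and ACGTG in 16.6% and 24.5%. The STAT6 palindrome occurred in 5.86% and 4.08%, CTTTGAT in 3.23% and 4.08%, and the NF-κB subset in 1.40% and 1.36%. The Slc2a6 and Slc30a4 windows held none of the 6. The windows of all genes were not limited to genes that met the count minimum, as the members were. The shares of all windows and of member windows are thus not on a like basis and do not show enrichment. These matches are letters in a window and were not tested as sites.

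Sugar and lactate carriers moved in both directions. Slc2a6 (GLUT6), a glucose transporter family member of intracellular membranes, read 119, 108 and 92.1 CPM in untreated cells, 181, 128 and 118 with IL-4, 205, 214 and 190.5 in the difference and 383, 258 and 302 in the remainder. Each part lay above all untreated libraries. Its log2 fold change was 0.93 ± 0.16 (adjusted p = 0.00083) in the difference and 1.56 ± 0.16 (adjusted p = 8.08e-06) in the remainder, and the remainder exceeded the difference by 0.63 ± 0.16 (adjusted p = 0.0376), with the 3 pairs in the same direction and no overlap between the parts. That last call was lost without mouse 3 (adjusted p = 0.348), without any library of the difference (0.0857 to 0.132) and without the remainder libraries of mouse 1 (0.173) or mouse 3 (0.0854).

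Slc2a1 (GLUT1), the main glucose importer of the macrophage surface, read 50.1, 60.1 and 57.1 CPM in untreated cells, 70.2, 63.3 and 59.9 with IL-4, 104, 114 and 103 in the difference and 91.0, 71.7 and 88.9 in the remainder, with log2 fold changes of 0.94 ± 0.10 (adjusted p = 1.40e-05) and 0.59 ± 0.10 (adjusted p = 0.000724). Slc16a3 (MCT4), which lets out the lactate made by glycolysis, read 54.3, 70.9 and 56.6 CPM in untreated cells, 61.6, 54.6 and 55.5 with IL-4, 157, 177 and 153 in the difference and 137, 104 and 98.6 in the remainder. In both genes the parts lay above every untreated library. Slc16a3 rose by 1.42 ± 0.13 (adjusted p = 2.36e-06) in the difference and 0.90 ± 0.13 (adjusted p = 0.000122) in the remainder, and the log2 ratio of remainder to difference was -0.52 ± 0.13 (adjusted p = 0.0281). That call between the parts was lost without mouse 2 (adjusted p = 0.1) or mouse 3 (0.399), without any library of the difference (0.0554 to 0.122) and without the remainder libraries of mouse 2 (0.0532) or mouse 3 (0.139). Slc2a3 (GLUT3), another glucose importer, moved the opposite way to Slc2a1, with log2 fold changes of -0.60 ± 0.13 (adjusted p = 0.00344) and -0.65 ± 0.13 (adjusted p = 0.00188), the first being lost without mouse 3 (adjusted p = 0.063). Of 10 glucose, lactate and pyruvate carriers, 4 were called higher (Slc16a1, Slc16a3, Slc2a1 and Slc2a6) and 2 lower (Slc2a3 and Slc37a2) in the difference, and 3 higher and 2 lower in the remainder.

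**Figure D3:**
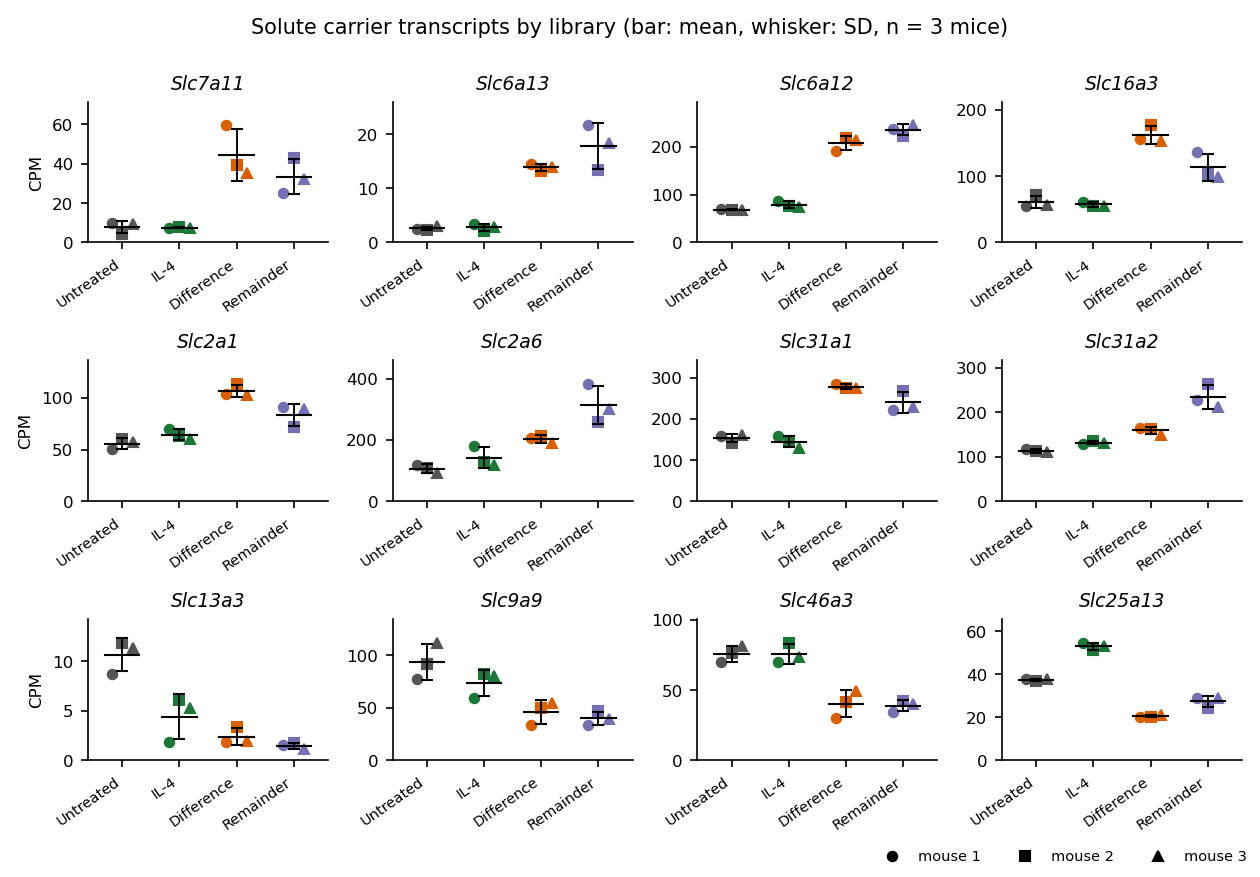
CPM of 12 members in each library, on linear axes from 0; points are libraries (circle, square and triangle for mouse 1, 2 and 3), horizontal bars are group means and whiskers the SD (n = 3). Slc7a11, Slc6a13, Slc6a12, Slc16a3, Slc2a1, Slc2a6, Slc31a1 and Slc31a2 stand above the untreated libraries in both Wnt3a parts, Slc13a3, Slc9a9 and Slc46a3 below them, and Slc25a13 is high with IL-4 and low in both parts.

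Among the 24 metal carriers, 5 were called higher and 1 lower in the difference, and 7 higher and 1 lower in the remainder. The copper transporters Slc31a1 (CTR1), the importer of the plasma membrane, and Slc31a2 (CTR2), found mostly on endosomes, are neighbours 62316 bases apart on chromosome 4 (chr4:62360727-62391769 and chr4:62262562-62298411). Slc31a1 read 158, 142 and 162 CPM in untreated cells, 158, 146 and 130.2 with IL-4, 285, 274 and 274 in the difference and 223, 269 and 229 in the remainder. Slc31a2 read 117, 112 and 109.8 CPM in untreated cells, 129, 136 and 131 with IL-4, 165, 163 and 149 in the difference and 227, 264 and 211 in the remainder. Both parts lay above the untreated libraries in either gene, and the parts were in opposite order: Slc31a1 had the higher log2 fold change in the difference (0.85 ± 0.09 (adjusted p = 1.13e-05), against 0.64 ± 0.09 (adjusted p = 0.000126) in the remainder), Slc31a2 in the remainder (1.05 ± 0.08 (adjusted p = 5.34e-07), against 0.49 ± 0.08 (adjusted p = 0.000616)). Between the parts, Slc31a2 was higher in the remainder by 0.56 ± 0.08 (adjusted p = 0.00115), a call lost without mouse 3 (adjusted p = 0.0571), and Slc31a1 gave -0.21 ± 0.09 (adjusted p = 0.226).

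Of 17 zinc carriers, 2 were called higher and 1 lower in the difference, and 4 higher and 1 lower in the remainder. Over all genes tested, 11.8% were called higher and 11.4% lower in the difference, and 13.6% and 11.7% in the remainder. Slc39a4 (ZIP4), a zinc importer, read 17.8, 16.8 and 21.8 CPM in untreated cells, 12.3, 10.8 and 14.6 with IL-4, 45.96, 40.3 and 43.2 in the difference and 37.4, 25.1 and 32.98 in the remainder, with log2 fold changes of 1.2003 ± 0.15 (adjusted p = 5.01e-05) and 0.76 ± 0.15 (adjusted p = 0.00189) and no overlap with untreated cells. The call in the remainder was lost without mouse 1 (adjusted p = 0.0571). With IL-4 alone it gave -0.58 ± 0.16 (adjusted p = 0.0642), which passed with mouse as a block (0.0272). Slc39a13 (ZIP13), an importer into the cytosol from internal stores, was lower, with -0.68 ± 0.09 (adjusted p = 5.01e-05) and -0.36 ± 0.08 (adjusted p = 0.00604), and its call in the remainder was lost without mouse 2 (adjusted p = 0.0912) or mouse 3 (0.0745).

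Of the 38 mitochondrial carriers, 8 were called higher and 2 lower in the difference, and 11 higher and 2 lower in the remainder. Their summed level was 2090 ± 62.8 CPM in untreated cells, 2105 ± 54.2 with IL-4, 2334 ± 45.6 in the difference and 2377 ± 90.2 in the remainder (SD, n = 3). Slc25a5 (ANT2), an ADP/ATP exchanger, rose by 0.76 ± 0.09 (adjusted p = 4.36e-05) and 1.00 ± 0.09 (adjusted p = 2.85e-06). Because 33.8% of its 50-base exon stretches occur elsewhere, for example in Gm5560, its counts are uncertain. Slc25a1, the citrate exporter (0.33 ± 0.10 (adjusted p = 0.0277) and 0.38 ± 0.10 (adjusted p = 0.0107)), and Slc25a39, the glutathione importer (0.33 ± 0.10 (adjusted p = 0.0286) and 0.37 ± 0.10 (adjusted p = 0.0142)), rose less. Each of these 4 calls was lost without mouse 1 (adjusted p = 0.0616 to 0.162) and without mouse 3 (0.152 to 0.223), and in 2 to 7 of the 9 refits that left out a mouse or library.

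Slc25a13 (citrin), the aspartate/glutamate carrier of the malate-aspartate shuttle, went against the larger number of its class. It read 37.7, 36.9 and 37.6 CPM in untreated cells, 54.5, 51.3 and 52.8 with IL-4, 20.1, 19.97 and 20.9 in the difference and 28.9, 24.4 and 28.6 in the remainder. No group overlapped with another. Its log2 fold change was 0.50 ± 0.09 (adjusted p = 0.00349) with IL-4, -0.88 ± 0.09 (adjusted p = 5.67e-06) in the difference and -0.45 ± 0.09 (adjusted p = 0.00138) in the remainder. The remainder exceeded the difference by 0.43 ± 0.09 (adjusted p = 0.0117), a call lost when only these groups entered the fit. The IL-4 call was lost without mouse 1 (adjusted p = 0.0518) or mouse 3 (0.24), that in the remainder without mouse 3 (0.0553), and that between the parts without mouse 1 (0.142), mouse 3 (0.334), the difference of mouse 2 (0.0564) or the remainder of mouse 1 (0.0531) or mouse 3 (0.0626). Its close relative Slc25a12 (aralar), which does the same exchange, gave 0.37 ± 0.09 (adjusted p = 0.00655) in the difference and 0.26 ± 0.09 (adjusted p = 0.0391) in the remainder. The former call was lost without mouse 3 (adjusted p = 0.118), and the latter in 6 of 9 such refits (up to 0.351) and with mouse as a block (0.0608).

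Members that work in lysosomes and endosomes were split. Of 13 listed lysosomal and endosomal transporters, 10 are members, of which 2 were called higher and 3 lower in the difference and 4 higher and 2 lower in the remainder. Slc46a3, a lysosomal exporter of conjugated steroids, read 69.8, 76.7 and 81.3 CPM in untreated cells, 69.9, 83.7 and 73.9 with IL-4, 30.3, 41.5 and 49.2 in the difference and 34.3, 42.5 and 40.1 in the remainder. The parts lay below every untreated and IL-4 library. Its log2 fold changes were -0.92 ± 0.14 (adjusted p = 0.00037) and -0.96 ± 0.15 (adjusted p = 0.000201). Slc15a3 and Slc15a4, which export histidine and small peptides and act beside toll-like receptors of the endosome, went apart. Slc15a4 read 169.8, 178 and 176 CPM in untreated cells, 215, 182 and 157 with IL-4, 110.2, 129 and 133 in the difference and 123.2, 108 and 126 in the remainder, with log2 fold changes of -0.49 ± 0.11 (adjusted p = 0.00431) and -0.55 ± 0.11 (adjusted p = 0.00166), both parts lying below all untreated libraries. Slc15a3 read 233, 269.8 and 252 CPM in untreated cells, 361, 336 and 313 with IL-4, 336, 317 and 290.5 in the difference and 462, 380.4 and 410.3 in the remainder and rose by 0.73 ± 0.09 (adjusted p = 4.48e-05) in the remainder. In the difference it gave 0.32 ± 0.09 (adjusted p = 0.0217), a call lost without mouse 1 (adjusted p = 0.11), mouse 3 (0.107), the untreated libraries of mouse 1 (0.0801) or mouse 3 (0.0539), or the difference of mouse 1 (0.0851) or mouse 2 (0.0638). Reads from Tmem132a, whose exons cover 28.1% of Slc15a3 on the opposite strand, cannot be told apart in these counts. Slc29a3, the lysosomal nucleoside exporter, rose by 0.52 ± 0.08 (adjusted p = 0.000373) in the remainder and gave 0.24 ± 0.08 (adjusted p = 0.0575) in the difference.

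The 16 members filed by family with the carriers of bicarbonate, anions and protons were called lower or not at all in the difference, with 4 lower. In the remainder 1 of them was called higher and 3 lower. Slc9a9 (NHE9), the sodium/proton exchanger of recycling endosomes, read 76.8, 91.5 and 112 CPM in untreated cells, 59.1, 81.5 and 80.1 with IL-4, 32.97, 49.6 and 54.5 in the difference and 33.8, 46.5 and 38.7 in the remainder. All 6 Wnt3a-treated values lay under the 6 others, and the log2 fold changes were -1.03 ± 0.19 (adjusted p = 0.00122) and -1.23 ± 0.19 (adjusted p = 0.000257). Slc26a11, an anion exchanger of lysosomes, gave -0.89 ± 0.12 (adjusted p = 9.74e-05) and -0.53 ± 0.12 (adjusted p = 0.00445), and Slc9b2, a sodium/proton exchanger, -1.07 ± 0.20 (adjusted p = 0.00123) and -0.63 ± 0.19 (adjusted p = 0.0259). The last value of Slc9b2 was lost in 7 of the 9 refits that left out a mouse or library, with adjusted p values up to 0.139.

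Of the 10 members filed by family with the carboxylate and sulfate carriers, 2 were called higher and 4 lower in the difference, and 1 higher and 5 lower in the remainder. The lower calls include Slc16a10 in both parts, whose substrates are aromatic amino acids. Slc13a3 (NaDC3), the importer of succinate and other dicarboxylates at the plasma membrane (chr2:165405028-165473230, minus strand), read 8.76, 11.9 and 11.4 CPM in untreated cells, 1.80, 6.13 and 5.27 with IL-4, 1.83, 3.36 and 1.89 in the difference and 1.49, 1.72 and 1.12 in the remainder. Every treated library lay below every untreated library. The log2 fold change was -2.17 ± 0.35 (adjusted p = 0.000458) in the difference and -2.87 ± 0.38 (adjusted p = 5.71e-05) in the remainder. Slc16a10 (TAT1) read 185, 192 and 188 CPM in untreated cells, 194, 194 and 174 with IL-4, 138, 144 and 139 in the difference and 128, 119 and 131 in the remainder, with log2 fold changes of -0.42 ± 0.07 (adjusted p = 0.000471) and -0.58 ± 0.07 (adjusted p = 2.48e-05) and no overlap of the parts with untreated cells.

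With IL-4 alone the calls were fewer and smaller. Slc30a4 (ZnT4), which loads zinc into vesicles (chr2:122681233-122702663, minus strand), read 10.53, 5.85 and 8.97 CPM in untreated cells, 20.1, 20.4 and 18.8 with IL-4, 12.4, 7.57 and 6.62 in the difference and 21.2, 32.8 and 23.1 in the remainder. The IL-4 and remainder libraries lay above all untreated and difference libraries. Its log2 fold change was 1.22 ± 0.24 (adjusted p = 0.00993) with IL-4, 1.597 ± 0.24 (adjusted p = 0.000198) in the remainder and 0.07 ± 0.25 (adjusted p = 0.868) in the difference, and the remainder exceeded the difference by 1.52 ± 0.24 (adjusted p = 0.00179). Without mouse 3 the IL-4 call (adjusted p = 0.204) and the call between the parts (0.118) were lost, and the IL-4 call also without the untreated library of mouse 3 (0.0532) or the IL-4 library of mouse 2 (0.0523).

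Slc39a6 (ZIP6), a zinc importer, read 71.3, 73.2 and 85.9 CPM in untreated cells, 119, 108 and 101 with IL-4, 67.2, 64.8 and 68.9 in the difference and 89.1, 86.2 and 91.8 in the remainder, and the IL-4 libraries lay above all others. It rose by 0.51 ± 0.09 (adjusted p = 0.00309) with IL-4, a call lost without mouse 1 (adjusted p = 0.0735) or mouse 2 (0.0503). Slc37a3, a relative of the glucose-6-phosphate transporter, rose by 0.55 ± 0.10 (adjusted p = 0.00523) with IL-4 and by 0.57 ± 0.10 (adjusted p = 0.000839) and 0.82 ± 0.10 (adjusted p = 2.86e-05) in the parts, the calls with IL-4 and in the difference being lost without mouse 3 (adjusted p = 0.209 and 0.0615). Slc15a3 rose by 0.42 ± 0.09 (adjusted p = 0.0217), Slc23a2, the vitamin C importer, by 0.30 ± 0.07 (adjusted p = 0.0381), and Slc41a2, a magnesium transporter, by 0.34 ± 0.08 (adjusted p = 0.0379). These 3 calls were lost in 7, 9 and 8 of the 9 refits that left out a mouse or library, and with mouse as a block the latter pair gave adjusted p = 0.0758 and 0.0788.

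Of the 4 members lower with IL-4, Slc25a37 (mitoferrin-1), the iron importer of mitochondria, read 145, 116 and 113 CPM in untreated cells, 48.1, 73.0 and 73.8 with IL-4, 199, 152 and 154 in the difference and 119.8, 141 and 128 in the remainder. Its IL-4 libraries lay below all 9 others. The log2 fold change was -0.94 ± 0.16 (adjusted p = 0.00309), lost without mouse 3 (adjusted p = 0.0719), against 0.43 ± 0.15 (adjusted p = 0.0604) and 0.05 ± 0.15 (adjusted p = 0.835) in the parts. Slc16a6 (MCT7), a carrier of ketone bodies, read 37.4, 27.9 and 32.4 CPM in untreated cells, 11.8, 19.4 and 22.2 with IL-4, 21.2, 16.7 and 17.3 in the difference and 17.9, 21.6 and 19.97 in the remainder. Its log2 fold change was -0.88 ± 0.19 (adjusted p = 0.0183) with IL-4 and -0.82 ± 0.19 (adjusted p = 0.00574) and -0.72 ± 0.19 (adjusted p = 0.0116) in the parts, and 23.5% of its exon bases overlap other genes, chiefly Amz2 on the opposite strand. Its IL-4 call was lost in 5 of 9 such refits, with adjusted p values up to 0.158, and without mouse 3 the calls in the parts were lost as well (0.094 and 0.118), the latter also without the untreated (0.0573) or the remainder library (0.0579) of mouse 1. Slc4a3, a chloride/bicarbonate exchanger, gave -0.75 ± 0.17 (adjusted p = 0.0276) with IL-4. That call was lost in 8 of the 9, with only the groups compared and after thinning. Slc13a3 gave -1.28 ± 0.33 (adjusted p = 0.04998), a call at the threshold that was lost in 13 of 19 alternative fits. These were 7 of the 9, DESeq2 size factors (0.0504), total counts as scaling, other count filters, only the groups compared and the columns as deposited.

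**Figure D4:**
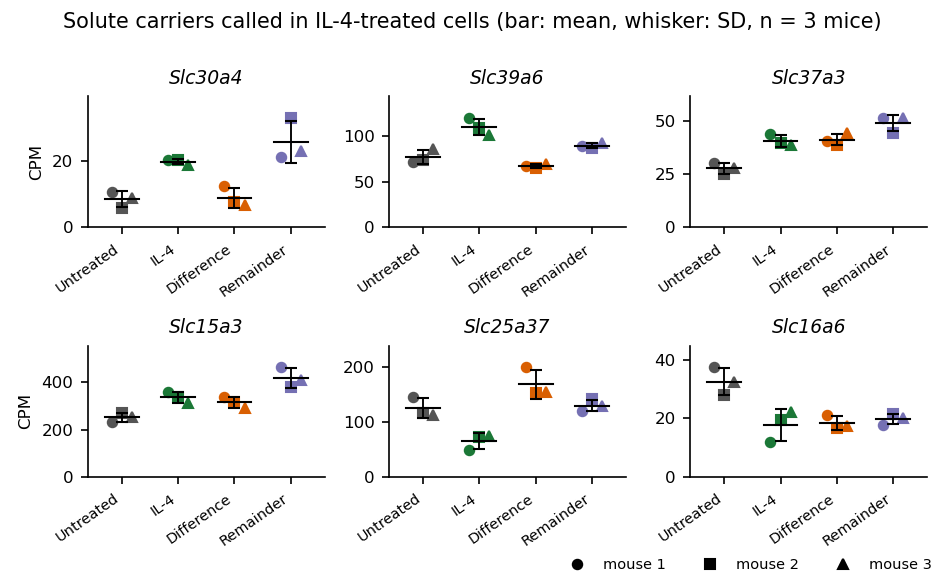
CPM of 6 members called with IL-4, in each library, on linear axes from 0; points are libraries by mouse, bars group means and whiskers the SD (n = 3). For Slc30a4 the IL-4 and remainder libraries stand above the untreated and difference libraries, and for Slc25a37 the IL-4 libraries stand below all others.

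The IL-4 comparison and the comparison of the 2 parts use no library in common, but they are not independent. Cultures of the same 3 mice supplied both, and 1 fit gave them a shared estimate of the spread. Of the 12 members called with IL-4, 9 had the same sign between the parts (remainder minus difference), and 4 of them, Slc15a3, Slc25a13, Slc30a4 and Slc39a6, were called there, all higher. The other 3, Slc16a6, Slc41a2 and Slc4a3, had opposite signs with no call. Among all 422 genes called with IL-4, 377 (89.3%) had the same sign and 219 were called with it. Between the parts Slc15a3 gave 0.41 ± 0.09 (adjusted p = 0.0197) and Slc39a6 0.41 ± 0.09 (adjusted p = 0.012), and without mouse 3 both were lost (adjusted p = 0.383 and 0.158). Slc15a3 was lost also without the difference of mouse 2 (0.0673) or mouse 3 (0.0992) or the remainder of mouse 1 (0.0753) or mouse 3 (0.0575), and Slc39a6 without mouse 1 (0.0571), the difference of mouse 2 (0.0632) or the remainder of mouse 3 (0.0586).

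**Figure D5:**
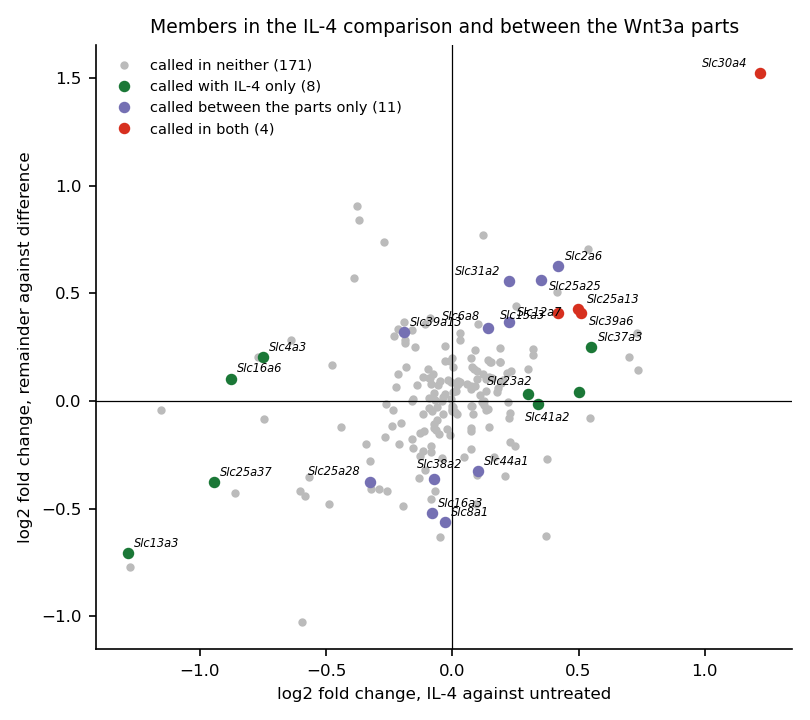
Log2 fold change of each of the 194 members with IL-4 against untreated (horizontal axis) and in the remainder against the difference (vertical axis); colours give where a member was called. Of the members, 4 were called in both, all in the upper right, 8 with IL-4 only, 11 between the parts only and 171 in neither.

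The test of whether the IL-4 effect differed with Wnt3a gave different counts for the possible assignments of the parts, between which the labels do not decide. Beside them stand the values of Mrc1, the mannose receptor and a known IL-4 target, which ran from 36.4 to 66.8 CPM in untreated cells, 191 to 270 with IL-4, 22.5 to 35.04 in the difference and 133 to 153 in the remainder, and the 377 of 422 genes given above. With the remainder as the culture given both agents, edgeR's interaction term called 0 members (0.105% of all genes), 29 had an unadjusted p under 0.05, DESeq2 called 3 and edgeR called 9 when all genes with at least 1 count were tested. With the difference as that culture it called 23 members, 8 with a higher and 15 with a lower IL-4 effect in the presence of Wnt3a (11.9%, beside 7.33% of all genes, 2.91% higher and 4.42% lower).

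Lower in the remainder than in the difference were 5 members, led by Slc8a1, the plasma membrane sodium/calcium exchanger, which read 28.5, 34.2 and 37.9 CPM in untreated cells, 30.4, 33.998 and 33.98 with IL-4, 31.9, 38.04 and 36.6 in the difference and 22.7, 25.5 and 23.8 in the remainder. Its remainder libraries lay below all 9 others, with -0.56 ± 0.11 (adjusted p = 0.0103) against the difference and -0.48 ± 0.11 (adjusted p = 0.0068) against untreated cells. Without mouse 3 both calls were lost (adjusted p = 0.246 and 0.194), and the first also without the difference of mouse 2 (0.0564) or the remainder of mouse 1 (0.0506). With mouse as a block, 11 members were called between the parts: Slc25a28, Slc38a2, Slc39a13, Slc44a1 and Slc6a8 were lost (adjusted p = 0.0699, 0.0803, 0.0783, 0.0715 and 0.0615) and Slc45a4 was gained (0.0419).

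The other classes had 20 members or fewer each, so a small number of calls there is not a small share. Of all genes tested, 23.2% were called in the difference, against 25.3% for the remainder. Of 20 nucleotide sugar and related carriers of family 35, 2 were called higher and 3 lower in the difference and 3 higher and 1 lower in the remainder, and none with IL-4. Among them Slc35b1, which exchanges ATP for ADP at the endoplasmic reticulum, read 40.2, 45.7 and 44.2 CPM in untreated cells, 55.8, 55.2 and 51.1 with IL-4, 65.2, 65.7 and 63.5 in the difference and 84.0, 65.3 and 76.5 in the remainder. Its parts lay above all untreated and IL-4 libraries, with log2 fold changes of 0.58 ± 0.09 (adjusted p = 0.000425) and 0.80 ± 0.09 (adjusted p = 2.13e-05). Of 10 members filed by family with the vitamin and cofactor carriers, 1 was called higher and 1 lower in the difference and 2 higher and 1 lower in the remainder. The lower call in both parts was Slc46a3, the exporter of conjugated steroids described above. Of 9 carriers of sodium, potassium, calcium and chloride, the difference held 2 lower calls and the remainder 3, among them Slc24a3, a potassium-dependent sodium/calcium exchanger. It read 1.88, 3.602 and 2.70 CPM in untreated cells, 1.56, 2.49 and 2.16 with IL-4, 0.859, 0.733 and 0.218 in the difference and 0.683, 0.860 and 1.25 in the remainder, so that each part lay below all untreated libraries, with log2 fold changes of -2.11 ± 0.39 (adjusted p = 0.0013) and -1.54 ± 0.37 (adjusted p = 0.00672), the latter lost without mouse 2 (adjusted p = 0.0614). Of 4 nucleoside carriers, Slc29a2 and Slc29a3 were higher and Slc29a1 lower in the remainder, the calls of Slc29a2 and Slc29a1 being lost without mouse 3 (adjusted p = 0.0547 and 0.0583). Of 9 carriers of organic ions and bile acids, 1 was called lower in the remainder. Of 4 phosphate carriers, 2 were called lower in the difference (Slc17a5, which exports sialic acid from lysosomes, and Slc17a9, which loads nucleotides into vesicles) and 1 in the remainder (Slc20a1). The call of Slc17a5 was lost in 7 of 9 refits that left out a mouse or library (adjusted p up to 0.194) and that of Slc17a9 in 6 of 9 (up to 0.120), and that of Slc20a1 was lost without mouse 1 (0.0887) or mouse 3 (0.0551). The 3 members filed apart as not carriers themselves were called in no comparison.

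Transporters without an Slc symbol moved in both directions too. Of 40 listed (ABC transporters, organic anion polypeptides, sideroflexins and others), 35 were tested, of which 6 were called higher and 4 lower in the difference, and 6 higher and 7 lower in the remainder. Over all genes tested, 11.8% were called higher and 11.4% lower in the difference, and 13.6% and 11.7% in the remainder. With IL-4, Tfrc, the transferrin receptor, was called higher and Slco3a1 lower. Of the 194 members, 24 in the difference and 23 in the remainder stayed called against untreated cells in every alternative fit with the same thresholds, among them Slc7a11, Slc6a12, Slc6a13, Slc2a1, Slc2a6, Slc16a3, Slc31a1, Slc31a2 and Slc35b1 (higher) and Slc13a3, Slc9a9, Slc46a3, Slc16a10, Slc15a4 and Slc26a11 (lower) in both. No member called with IL-4 alone, or between the parts, stayed called in every such fit.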

How the data were processed

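RNA-seq was measured in 12 BMDM samples, 3 mice by 4 treatments. The deposited values are raw counts per Ensembl gene, which the authors made, per the submitters' processing notes, with FastQC 0.11.7, Trimmomatic 0.36, STAR 2.6.0, SAMtools 1.9 and HTSeq 0.11.1 on mm10, with DESeq2 1.24.0 also listed. Gene symbols, coordinates and exon lengths came from GENCODE M21 (GRCm38), which matched 48144 of 48526 identifiers. Because counting by strand is not given in the sources used here, reads of overlapping genes on opposite strands cannot be told apart, and shared 50-base stretches were computed for each member.

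The Wnt3a and Wnt3a+IL-4 columns share reads, so the difference and the remainder were computed from the columns in each mouse and used as libraries. The test took the 12421 genes that reached 10 counts in 3 or more of the 12 resulting libraries. edgeR 4.0.16 (R 4.3.3) with TMM scaling and the quasi-likelihood test was fitted over all 4 groups without a mouse term, two-sided, with Benjamini-Hochberg adjustment over all genes tested and a threshold of 0.05. CPM values are counts divided by TMM-scaled totals. DESeq2 1.42.0, other scalings and filters, mouse as a block, thinning and leaving out each mouse or library were the alternatives. The same mouse gave a sample to each group, and deviations from the group means correlated from -0.57 to 0.54 between samples of a mouse. On simulated data, 173 of 200 genes changed 2-fold were recovered for IL-4 against untreated, with 10 false calls among 183. The changed genes were drawn only from those with higher mean counts, and all genes had the same dispersion and no mouse effect. Recovery at lower counts or wider spread was not simulated. The total counts, 13342492 to 17453377 per untreated, IL-4, difference or remainder library, set the counting precision. Counts cover counting error only.

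The members, substrate classes and gene lists were chosen with earlier results of these data known. Genes named are, for each comparison, the called members with the 8 largest rises and the 8 largest falls, at 5 CPM or more and in the same direction in all 3 mice, listed genes marked for naming, the 10 highest per kilobase, and members called in the interaction under both assignments. Outside that rule, chosen after their values were seen, are Slc6a4, Slc1a2, Slc6a8, Slc22a17, Slc22a21, Slc25a35, Slc25a51, Slc28a2, Slc52a2, Mrc1, Slc17a9, Slc20a1, Slc24a3, Slc25a1, Slc25a12, Slc29a1, Slc29a2, Slc31a1, Slc35b1, Slc35c1, Slc45a4, Tfrc and Slco3a1, and the genes beside the count minimum. Some called members are counted but not reported here by name. No p-values adjusted over the members alone are given. A design that fitted the 4 columns as deposited was kept as an alternative.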

Additional observations from a re-analysis of the deposited data

Results flagged for a closer look

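With IL-4 alone and between the parts, the effect of IL-4 can be set against its effect in Wnt3a-treated cells only once the parts are assigned to cultures. If the difference is taken as the Wnt3a+IL-4 culture and the remainder as the Wnt3a culture, the IL-4 effect differed with and without Wnt3a in 23 members (8 higher and 15 lower with Wnt3a, 11.9%, beside 7.33% of all genes tested by edgeR's interaction term). If the remainder is taken as the Wnt3a+IL-4 culture, 0 members were called by edgeR (13 of all genes, 0.105%), with 29 members at an unadjusted p under 0.05, 3 called by DESeq2 and 9 called by edgeR when all genes with at least 1 count were tested. No member was called under both in the edgeR fit of the report. The labels do not decide between the assignments. Of 422 genes called with IL-4 alone, 377 had the same sign in the remainder against the difference, and Mrc1 averaged 50.4 CPM in untreated cells, 222 with IL-4, 28.5 in the difference and 142 in the remainder.

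Under the former assignment, the interaction term adds the log2 fold changes with IL-4 and of remainder against difference, and reverses the sign. A gene with the same sign in both comparisons thus gets a larger value by definition, and the values hold under that assignment only. On the log2 scale the interaction was then lower with Wnt3a by the values that follow. Slc30a4 had -2.74, Slc2a6 -1.05, Slc25a13 -0.93, Slc39a6 -0.92, Slc25a25 (a mitochondrial ATP-Mg/phosphate carrier) -0.92, Slc15a3 -0.83, Slc37a3 -0.80 and Slc31a2 -0.78. Slc12a7 (a potassium/chloride cotransporter) had -0.59 and Slc25a5 -0.56. In the other direction, Slc13a3 had 1.99, Slc25a37 1.32, Slc39a4 1.02, Slc25a28 (mitoferrin-2) 0.70 and Slc8a1 0.59. Of the 23 members, Slc25a37, Slc30a4, Slc31a2 and Slc39a6 were called in every alternative fit with the same thresholds.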

How the results depend on the processing

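Among 116 values of named genes that passed the threshold, each recomputed under the alternatives (2500 values), 1983 stayed past it in the same direction, 517 fell short of it and 0 changed sign. Leaving out a mouse or a library gave 1 to 9 called members with IL-4, 24 to 49 in the difference, 26 to 74 in the remainder, 0 to 22 between the parts, and 0 to 1 and 4 to 31 in the interaction under the former and the latter assignment (remainder, then difference, as the Wnt3a+IL-4 culture). Without mouse 3 the counts were at the low end of each range (1, 24, 26, 0, 0 and 4). With mouse as a replicate block, since the labels give each mouse 1 sample per group, the counts were 12, 55, 62, 11, 0 and 24. Beyond the changes given beside the results, the block lost Slc25a35 (adjusted p = 0.0552) and Slc35c1 (0.0537) in the difference, and Slc25a51 (0.0502), Slc38a7 (0.0644), Slc52a2 (0.0792) and Slc7a6 (0.0800) in the remainder. It gained Slc43a3 with IL-4 (0.0393), Slc22a17 in both parts and Slc22a21 in the difference, and in the latter interaction lost Slc29a2 and gained Slc28a2 and Slc43a3.

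At an adjusted p under 0.01, 6 members were called with IL-4, 33 in the difference, 44 in the remainder, 2 between the parts and 11 in the latter interaction. When the size of the log2 fold change also had to reach 1, the counts were 2, 12, 14, 1 and 6. Shares of all genes are not given for member counts under the alternatives, so those counts do not set the members against other genes. With all genes of at least 1 count tested, 20 were called with IL-4, 23 between the parts and 9 in the former interaction, which DESeq2 called in 3 and the columns as deposited in 1. The parts differed in 6 members when only those groups entered the fit, and in 0 when the columns were used as deposited. Total counts as the scaling moved the members' median log2 fold change to -0.062 with IL-4, -0.10 in the difference and -0.10 in the remainder. The cause of these shifts was not tested. The interactions were not run with only the groups compared, nor the latter with the columns as deposited. At the depth of these libraries, simulated 2-fold changes were recovered in 173 of 200 genes for IL-4 against untreated. That holds only for genes with higher mean counts and the same dispersion in all genes.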
